A study of Mus musculus with 8 samples.

Results

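The heat shock protein (Hsp) and DnaJ (Dnaj) genes that encode the chaperones of the cytosol and mitochondria, with a few relatives of other compartments, were followed in 6 islet cell types exposed to cytokines. A gene was included when its symbol named an Hspa, Hspb, Hspd, Hspe, Hsph, Hsp90a, Dnaja, Dnajb or Dnajc gene. Pseudogenes were left out, as were *Hspa5*, *Dnajb9* and *Dnajc3*, which belong to the unfolded protein response of the endoplasmic reticulum (ER). This rule used no measured value and gave 68 genes of the 30406 listed for every library. Islets of male C57BL/6 mice (the J substrain in the study's methods), 12 to 16 weeks old, had been pooled from 10 mice per replicate, divided over 4 conditions and cultured for 18 h. One sample received no agent, the next received IL-1β at 10 U/mL together with IFN-γ at 150 U/mL, another received these cytokines along with NMMA at 2 mM, and the last received NMMA by itself at the same dose. IL-1β and IFN-γ together induce nitric oxide synthase in β-cells, and NMMA (N-monomethyl-L-arginine) inhibits that enzyme. Each condition had 2 replicates, which gave 8 single-cell RNA libraries of whole islets. A p-value below therefore weighs a difference against the spread between the 2 libraries of a condition, shared over the 4 conditions. The main test within a cell type did not pair the libraries that came from the same pool.

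Hsp70 proteins hold unfolded stretches of other proteins and release them again as they hydrolyse ATP. DnaJ proteins deliver clients to Hsp70 and start that hydrolysis, Hsp110 proteins such as *Hsph1* exchange its nucleotide, and Hsp90 finishes the folding of kinases and receptors. Small Hsps such as *Hspb1* hold denatured proteins without ATP, and Hsp60 with Hsp10 (*Hspd1* and *Hspe1*) forms the folding chamber of the mitochondrial matrix. Some members, such as *Hspa8* and *Hsp90ab1*, are made in nearly every cell, and others, such as *Hspa1a* and *Dnajb1*, are induced through heat shock factor when proteins unfold. Nitric oxide is known to induce heat shock proteins in islets. By role the members divided into 6 stress-inducible cytosolic, 8 constitutive cytosolic, 8 mitochondrial, 6 ER-located, 6 small Hsps other than *Hspb1*, 9 specialised J proteins and 25 others.

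Heat shock factor binds inverted repeats of the letters GAA, and the stretches of promoter that hold such repeats are shown because they are the sequence that inducible members are known to share. RefSeq promoter windows (GRCm38.p6, 250 bases before to 50 after a transcription start) were found for 54 of the 68 members. The 3-unit heat shock element, GAA, TTC and GAA with any 2 bases between neighbours, was searched on either strand and occurred in 4 of the 54, which is 7.41%, against 0.662% of the 27025 genes in the table. These 4 were *Hspe1*, *Hspd1*, *Dnajb6* and *Hsph1*. The 2-unit letters GAANNTTC or TTCNNGAA, which also lie within the 3-unit form, occurred in 16 members (29.6%) against 17% of all genes, and in 4 of the 5 inducible members with a window. In the stretches below the matching letters are in capitals, and the first 3 hold the 3-unit form.
Hspe1: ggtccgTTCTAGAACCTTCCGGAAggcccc
Dnajb6: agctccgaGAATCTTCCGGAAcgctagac
Hsph1: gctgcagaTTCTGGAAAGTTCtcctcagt
Hspa1a: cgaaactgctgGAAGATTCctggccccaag
Hspb1: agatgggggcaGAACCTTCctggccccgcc
Dnaja1: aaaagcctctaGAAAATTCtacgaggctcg

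The *Hspe1* stretch lies at chr1:55088053-55088082 on the plus strand, 89 bases before its start, in an annotated first-exon untranslated region of *Hspd1*, the gene read in the other direction, whose window holds the same letters on the minus strand. The *Dnajb6* stretch (chr5:29735844-29735872, plus strand) and the *Hsph1* stretch (chr5:149636280-149636308, minus strand) lie in untranslated exons of their genes in the GENCODE M21 annotation, the latter 16 bases after a start. The *Dnajb6* stretch also overlaps annotated coding sequence of *Gm5129*. The *Hspa1a* stretch (chr17:34972242-34972271, minus strand) lies outside any annotated gene, 104 bases before the start, and *Hspa1b* carries the identical letters at chr17:34959324-34959353. The windows of these neighbours differed at 4 of 300 bases. The 2 genes are known as close copies of each other, and how the counting divided UMIs between them was not tested. The *Hspb1* stretch (chr5:135887811-135887840, plus strand) is also outside annotated genes, and the *Dnaja1* stretch (chr4:40722333-40722362, plus strand) overlaps an annotated exon. No match was found in either window of *Dnajb1*, and *Hspa8*, *Hsp90aa1* and *Hsp90ab1* had no window in the table. A match is a run of letters and not a measured binding site.

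The libraries held 26549922 to 50731370 UMIs, and 10876 of 17426 barcodes passed the filters on genes and mitochondrial UMIs. Of these, 14 barcode sequences occurred in more than 1 library. Clustering without the 68 members, followed by markers, gave 6195 β-cells, 617 α-cells, 333 δ-cells, 324 macrophages, 283 endothelial cells and 221 mesenchymal cells, and every library of every cell type expressed its full marker list. β-cells of different conditions, and untreated β-cells of replicates 1 and 2, fell mostly into different clusters. A β-cell cluster of 291 cells was led by *Hspa1a*, *Dnajb1*, *Hspa1b* and *Hsph1* although these genes took no part in the clustering. It held 80, 49, 51 and 103 cells of the replicate 1 libraries (in the order untreated, cytokines, both agents, NMMA) and 1, 3, 2 and 2 of replicate 2. When the members were kept in the clustering, a cluster led by *Hspa1b*, *Hspa1a* and *Hspb1* held 100, 101, 68 and 136 cells of replicate 2. The cells of the first cluster are therefore not a count of such cells per replicate. *Nos2*, which encodes the inducible nitric oxide synthase, stood at 0.0294 and 0 CPM (UMIs of the gene per 1e6 UMIs) in untreated β-cells and at 193 and 160.1 CPM with cytokines, as a check of the labels. Below, cytokines plus NMMA stands for islets given both agents. Levels are CPM of the UMIs summed over the cells of a type in a library, with library sizes scaled by the trimmed mean of M-values (TMM), given for replicate 1 and then replicate 2. Each UMI marks 1 transcript at its 3′ end, so levels were not divided by gene length.

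In β-cells the share of transcripts that encode chaperones was highest with cytokines, and lower when NMMA was added to the cytokines. The 68 members together made up 0.470 ± 0.092% (SD, n = 2) of the UMIs of untreated β-cells, 0.984 ± 0.095% with cytokines, 0.633 ± 0.013% when NMMA was added, and 0.536 ± 0.062% for NMMA alone. Of the 57 members with enough UMIs to be tested, 25 rose and 8 fell with cytokines (edgeR quasi-likelihood test, Benjamini-Hochberg adjusted p under 0.05 over all 12751 genes tested). Over all genes 23.5% rose and 22.3% fell in this comparison. The median log2 difference of the tested members was 0.41, against 0.0023 over all genes. With scaling by total UMIs, which moved the median of all genes by -0.21, 17 members rose and 10 fell, with no share of all genes given for that scaling. Between cytokines with NMMA and cytokines alone, 8 members were higher and 16 lower with NMMA, where 10.3% of all genes were higher and 8.98% lower. The median difference of the members was -0.24, and by total UMIs, where the median of all genes moved by 0.21, 8 were higher and 7 lower. Without the replicate 1 cytokine library 11 members were called there, and without the replicate 1 or the replicate 2 library of cytokines with NMMA 6 and 10. These comparisons share the cytokine libraries, so the values of each are set side by side below and their likeness is not counted as a result.

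**Figure D1:**
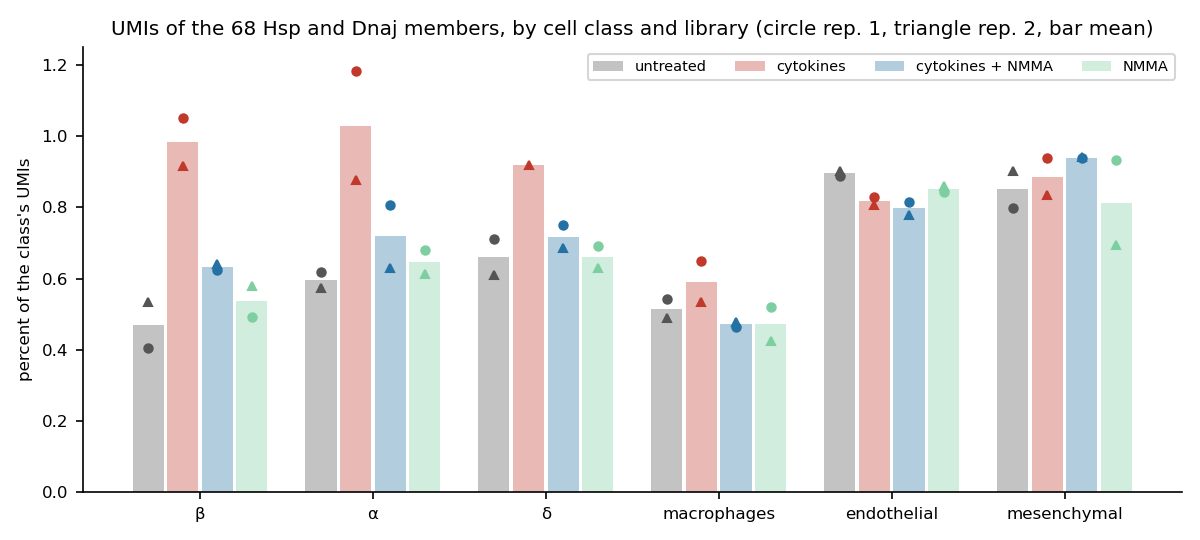
Share of the UMIs of a cell type (percent, vertical axis) that belonged to the 68 chaperone genes in each condition, for the 6 cell types; each circle is the replicate 1 library and each triangle the replicate 2 library. In β-cells the 2 cytokine libraries, at 1.05% and 0.917%, lie above the other 6. In endothelial cells both untreated libraries, at 0.888% and 0.903%, lie above the other 6, and in mesenchymal cells the untreated and cytokine libraries overlap.

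Among the stress-inducible cytosolic members, *Hsp90aa1*, *Hsph1* and *Dnajb1* rose with cytokines, and 3 of 6 were called in all. *Hsp90aa1* (chr12:110690605-110702728, minus strand) encodes the inducible Hsp90 and stood at 404 and 585 CPM in untreated β-cells, 1999 and 1570 with cytokines, 758 and 737 with cytokines plus NMMA, and 610.2 and 656 for NMMA alone. Both cytokine libraries lay above all others. The log2 difference was 1.85 ± 0.20 (SE, adjusted p = 0.000154) for cytokines against untreated and -1.25 ± 0.20 (adjusted p = 0.00517) for the addition of NMMA. *Hsph1* (chr5:149614287-149636376, minus strand), the Hsp110 exchange factor, stood at 51.8 and 128 CPM untreated, 372 and 419.7 with cytokines, 148 and 176 with cytokines plus NMMA, and 111 and 198 for NMMA alone. It rose by 2.14 ± 0.47 on the log2 scale (adjusted p = 0.011), and its difference of -1.29 ± 0.45 with NMMA did not pass the test (adjusted p = 0.0994). That NMMA difference passed in 3 of 14 alternatives. *Dnajb1*, the J protein that works with inducible Hsp70, stood at 19.8 and 49.9 CPM untreated, 176 and 144 with cytokines, 81.9 and 76.9 with cytokines plus NMMA, and 36.7 and 66.5 for NMMA alone. Its difference of -1.01 ± 0.48 with NMMA did not pass the test (adjusted p = 0.196) but passed in 3 of 14 alternatives. With cytokines *Dnajb1* rose by 2.21 ± 0.49 (adjusted p = 0.0143). Without either cytokine library the adjusted p of *Hsph1* came to 0.0522 and 0.0523 and that of *Dnajb1* to 0.0853 and 0.0502.

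*Hspa1a* and *Hspa1b*, the inducible Hsp70 genes, and *Hspb1*, or Hsp27, had higher levels with cytokines within each replicate but differed between the replicates, most of all in untreated β-cells. *Hspa1a* (chr17:34969190-34972156) stood at 56.0 and 232 CPM untreated, 382 and 618 with cytokines, 239.6 and 323 with cytokines plus NMMA, and 125 and 237 for NMMA alone. Its difference of 1.80 ± 0.77 did not pass the test (adjusted p = 0.122), while with the pool of mice as a block it was 2.01 (adjusted p = 0.0383). *Hspa1b* (chr17:34956436-34959238) stood at 20.4 and 153 CPM untreated, 195 and 485 with cytokines, 117 and 246 with cytokines plus NMMA, and 77.6 and 209 for NMMA alone. Its difference of 1.98 ± 1.22 (adjusted p = 0.26) became 2.32 with the block (adjusted p = 0.0387). *Hspb1* went from 7.33 and 81.4 CPM untreated to 86.3 and 223 with cytokines, and stood at 26.5 and 63.0 with cytokines plus NMMA, a difference of 1.81 ± 1.45 for cytokines (adjusted p = 0.372, and 0.0599 with the block). The untreated and the cytokine libraries did not overlap for any of the 3 genes, but the replicate 2 untreated level of *Hspb1* came close to its replicate 1 cytokine level, as the plot of levels by library shows. None of the 3 passed the main test between cytokines with and without NMMA (adjusted p = 0.499, 0.648 and 0.455). Each passed it in 1 of 14 alternatives, which was not a fit with a library left out. The paper reports that *Hspa1a* and *Hspa1b* depended on nitric oxide by qRT-PCR of whole islets.

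**Figure D2:**
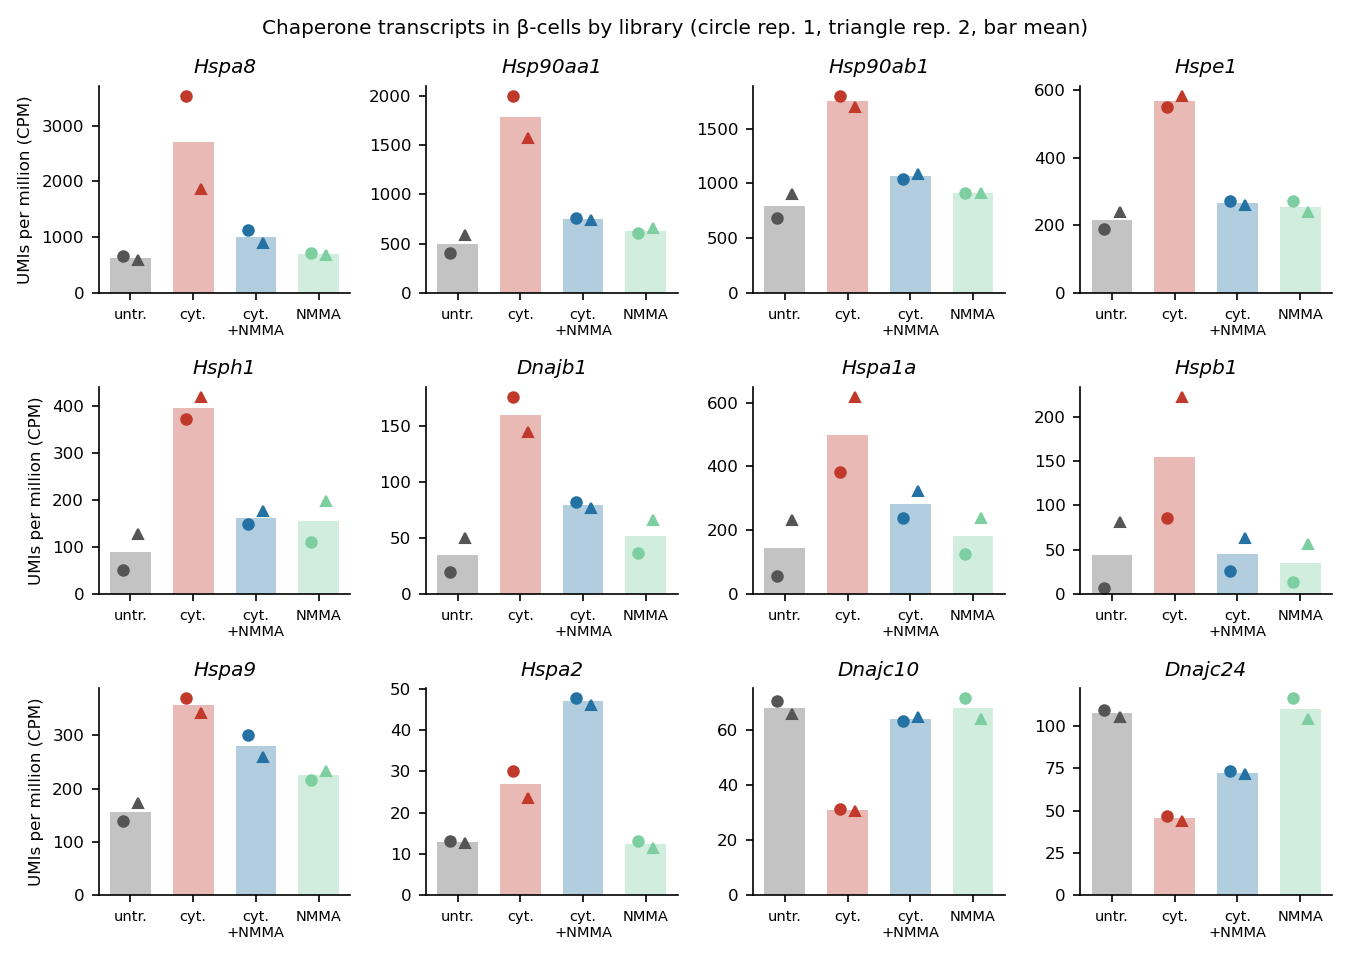
Level of 12 chaperone genes in β-cells (CPM, vertical axes starting at 0) in untreated, cytokine, cytokines plus NMMA, and NMMA libraries; points are the libraries of replicates 1 and 2 and bars their mean. Hspa8, Hsp90aa1, Hsp90ab1 and Hspe1 have both cytokine libraries above all others, Hspa2 is highest with cytokines plus NMMA, and Dnajc10 and Dnajc24 are lowest with cytokines.

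The constitutive cytosolic chaperones moved as well: 6 of 8 rose with cytokines, none fell, and 5 were lower with NMMA added. *Hspa8* (chr9:40800984-40810087, plus strand), the standing Hsp70 of the cytosol, stood at 665 and 599 CPM untreated, 3534 and 1869 with cytokines, 1131 and 890.1 with cytokines plus NMMA, and 712 and 688 for NMMA alone. It rose by 2.10 ± 0.28 (adjusted p = 0.000565) and was lower with NMMA by a log2 difference of -1.42 ± 0.27 (adjusted p = 0.0115; 0.0646 without the replicate 2 library of cytokines with NMMA). *Hsp90ab1*, the standing Hsp90, stood at 682 and 907 CPM untreated, 1800 and 1702 with cytokines, and 1045 and 1083 with cytokines plus NMMA. It rose by 1.14 ± 0.16 (adjusted p = 0.000529) and differed by -0.72 ± 0.15 with NMMA (adjusted p = 0.0149, but 0.0857 without the replicate 1 cytokine library and 0.079 and 0.0596 without the replicate 1 or 2 library of cytokines with NMMA). The J proteins *Dnaja1* (137 and 189.9 CPM to 270.0 and 309) and *Dnaja2* (59.9 and 59.8 CPM to 115.5 and 92.1), which hand clients to Hsp70, rose by 0.83 and 0.80. *Dnajb6*, a J protein known to keep aggregating proteins soluble, rose by 0.48 and *Dnajc7*, which bridges Hsp70 and Hsp90, by 0.50; neither passed the test with scaling by total UMIs (adjusted p = 0.105 and 0.108). *Dnaja1*, *Dnaja2* and *Dnajb6* were lower with NMMA added, by log2 differences of -0.69, -0.61 and -0.45 (adjusted p = 0.0285, 0.0171 and 0.0263). Of the 8 fits that left out 1 library these calls were kept in 4, 5 and 4, with each loss in a fit without a library of cytokines or of cytokines with NMMA, and over all alternatives the adjusted p reached 0.132, 0.102 and 0.195. *Dnajc7* differed by -0.40 (adjusted p = 0.0796, and 0.0069 with the block). *Hspa4*, an Hsp110 relative, and *Hspa14*, a ribosome-bound Hsp70, were the constitutive members with no call. *Hspa4* stood at 78.0 and 82.2 CPM untreated and 77.6 and 69.6 with cytokines, and *Hspa14* at 15.0 and 15.0 untreated and 18.3 and 17.3 with cytokines.

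Of the 8 mitochondrial members, 6 rose with cytokines, and 5 were lower with NMMA added. Among them the cytokine calls of *Dnajc11* and *Dnajc15* were lost by total UMIs (adjusted p = 0.107 and 0.0768). They were also lost in some fits that left out 1 library. *Hspe1* (chr1:55088132-55091307, plus strand), or Hsp10, stood at 189.7 and 239 CPM untreated, 549.6 and 583 with cytokines, 272 and 261 with cytokines plus NMMA, and 271 and 238 for NMMA alone. It rose by 1.40 ± 0.16 (adjusted p = 0.000182) and was lower with NMMA by a log2 difference of -1.08 ± 0.15 (adjusted p = 0.00399). *Hspd1* (chr1:55077835-55088243, minus strand), or Hsp60, its neighbour and partner, rose by less, from 122 and 140.1 CPM to 204 and 216 (0.68 ± 0.13, adjusted p = 0.00285), and stood at 128 and 127.5 with cytokines plus NMMA (-0.72 ± 0.13, adjusted p = 0.00837, and 0.053 without the replicate 1 library of that group). *Hspa9*, the Hsp70 of the mitochondrial matrix that also pulls in imported proteins, kept a different order: 139.5 and 174 CPM untreated, 371 and 343 with cytokines, 302 and 260.0 with cytokines plus NMMA, and 216 and 233 for NMMA alone. It rose by 1.19 ± 0.16 with cytokines (adjusted p = 0.00044) and by 0.84 ± 0.16 with cytokines plus NMMA against untreated (adjusted p = 0.00485). The difference between cytokines with and without NMMA was -0.35 ± 0.16 (adjusted p = 0.15, and 0.0193 with the block). The other mitochondrial members that rose were the J proteins *Dnaja3* (0.76), *Dnajc11* (0.51) and *Dnajc15* (0.54), each of them lower with NMMA (adjusted p = 0.0342, 0.0162 and 0.0359, but 0.199, 0.105 and 0.182 without the replicate 1 cytokine library), while *Dnajc19* (0.18) and *Dnajc30* (0.16) did not pass the test in either comparison.

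Of the 6 members located in the ER, 3 were lower with cytokines in β-cells and none was higher, and 4 were higher when NMMA was added. A further one, *Dnajc1*, had a difference of 0.31 with cytokines that passed the test with the block (adjusted p = 0.016, against 0.126 without it). The NMMA calls of *Hspa13* and *Dnajb14* were lost in some fits without 1 library (log2 differences of 0.44 to 0.64 and 0.37 to 0.48). That of *Dnajc10* held in all 14 alternatives. *Dnajc10* (chr2:80315466-80354043, plus strand), a disulfide reductase of the ER also called ERdj5, stood at 70.3 and 65.7 CPM untreated, 31.3 and 30.5 with cytokines, 63.1 and 64.8 with cytokines plus NMMA, and 71.6 and 64.0 for NMMA alone. Its cytokine libraries lay below all others, with a log2 difference of -1.14 ± 0.12 (adjusted p = 0.000135) and of 1.05 ± 0.12 for the addition of NMMA (adjusted p = 0.00224). *Hspa13*, an Hsp70 relative of the ER, fell with cytokines (-0.45 ± 0.15, adjusted p = 0.034, but 0.0666 to 0.153 without any 1 of the untreated or cytokine libraries), and *Dnajb14*, a J protein of the ER membrane, fell too (-0.55 ± 0.12, adjusted p = 0.00589). *Dnajb11*, the ER J protein ERdj3, behaved in another way: it stood at 104 and 97.7 CPM untreated, 96.4 and 84.7 with cytokines, 161 and 138 with cytokines plus NMMA, and 118 and 104 for NMMA alone. Its level with cytokines plus NMMA was above every other library, by 0.72 ± 0.14 over cytokines (adjusted p = 0.0113, but 0.0765 without its replicate 1 library and 0.055 without the replicate 2 cytokine library).

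The remaining calls came from members with more distant functions. *Dnajc24* (chr2:105966709-106003549, minus strand), which takes part in the synthesis of diphthamide on elongation factor 2, fell from 109.6 and 105 CPM to 46.9 and 44.1 with cytokines (-1.24 ± 0.12, adjusted p = 0.000101) and stood at 73.3 and 71.4 with cytokines plus NMMA, above the cytokine libraries (0.67 ± 0.12, adjusted p = 0.00842) and below the untreated ones (-0.57). *Hspa12a*, a distant Hsp70 relative, fell from 18.6 and 21.1 CPM to 6.17 and 7.10 (-1.58 ± 0.17, adjusted p = 0.000154) and stood at 9.14 and 11.5 with NMMA added. *Dnajc28* (2.12 and 1.45 CPM to 0.345 and 0.465) and *Hspa12b* (0.383 and 0.545 CPM to 0.115 and 0.0664) were called lower at levels of a few CPM or less. The *Hspa12b* call (adjusted p = 0.0385) was lost with DESeq2 (adjusted p = 0.152) and was kept in 1 of the 7 fits that left out a library and could test it. *Dnaja4* (41.5 and 44.8 CPM to 93.4 and 83.3) and *Dnajc2* (26.1 and 33.9 CPM to 64.3 and 60.6), the latter a J protein bound to the ribosome, rose with cytokines by 1.04 ± 0.12 and 1.06 ± 0.14. With NMMA added they stood at 42.0 and 45.0 CPM and at 33.1 and 33.9 CPM, within the range of untreated cells or close to it. Among the 9 specialised J proteins, 4 rose with cytokines and 2 fell, and with NMMA added 1 was higher and 4 were lower. Of the small Hsps other than *Hspb1*, 2 were tested in β-cells, and *Hspb8*, which serves selective autophagy, rose from 1.56 and 2.12 CPM to 4.29 and 5.18 (1.38 ± 0.32, adjusted p = 0.00746, and 0.0655 without the replicate 1 untreated library).

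*Hspa2*, an Hsp70 best known from testis, was higher with cytokines and higher again when NMMA was added. It stood at 13.0 and 12.7 CPM untreated, 30.2 and 23.6 with cytokines, 47.9 and 46.2 with cytokines plus NMMA, and 13.1 and 11.5 for NMMA alone. It rose by 1.07 ± 0.15 with cytokines (adjusted p = 0.000563) and was higher again by 0.80 ± 0.15 with NMMA added (adjusted p = 0.00838, and 0.0532 without the replicate 1 library of that group), and no library of one of these groups overlapped another. Against untreated β-cells, 5 members were higher with cytokines plus NMMA (*Hspa2* 1.87, *Hspb8* 1.63, *Hspa9* 0.84, *Dnajb11* 0.57 and *Dnajc21* 0.57) and 3 were lower (*Hspa12a* -0.95, *Dnajc27* -0.70 and *Dnajc24* -0.57). Of all genes 12.7% were higher and 9.75% lower in the main fit, shares that are not given for the alternatives of this comparison. With the block, 13 members were called there, 10 higher and 3 lower, and without the untreated library of replicate 1, or the replicate 1 or 2 library of cytokines with NMMA, 2, 4 and 5 were. NMMA alone gave no call against untreated β-cells by edgeR or DESeq2, among members or among all genes (0%), with 4 members at an unadjusted p under 0.05. These were *Hspb8* (0.99), *Dnajc25* (0.55), *Hspa9* (0.52) and *Hspb11* (-0.69), and each passed with the block (adjusted p = 0.0308, 0.0262, 0.0188 and 0.0125). The 0% of all genes belongs to the fits without the block, and no such share is given with it.

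**Figure D3:**
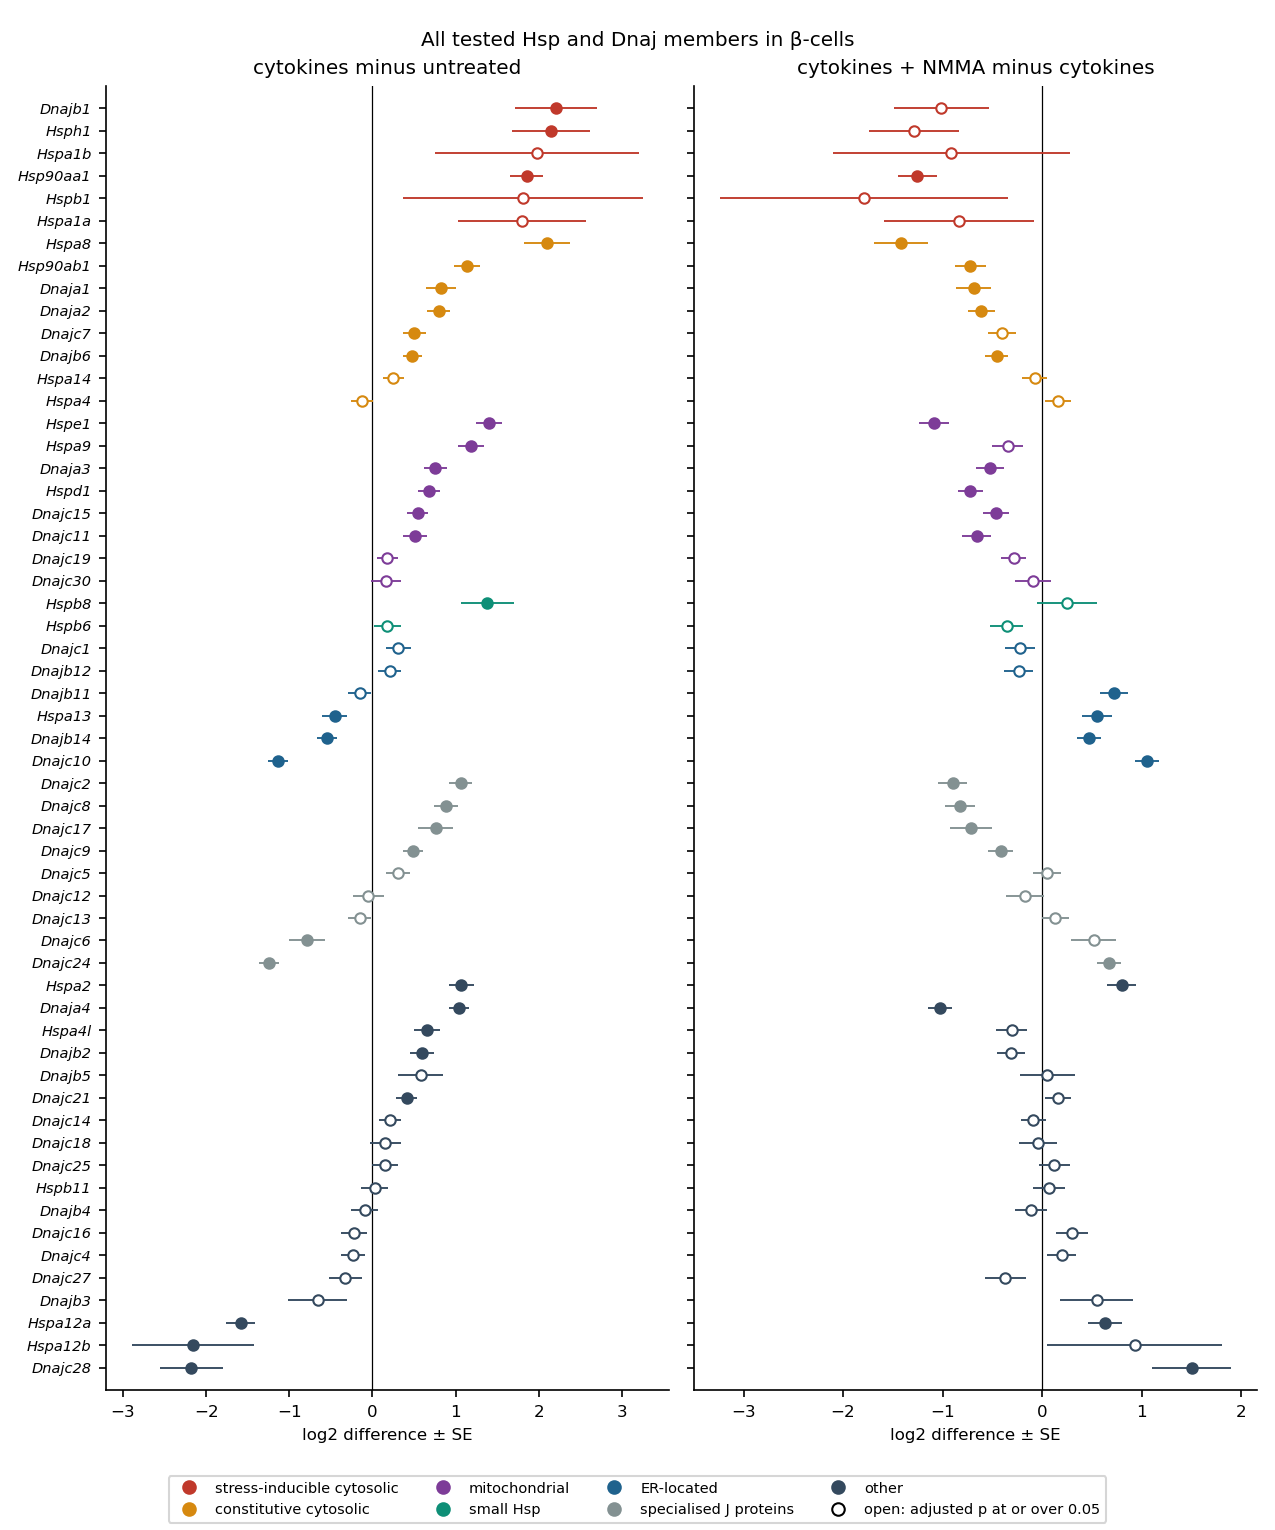
Log2 difference (horizontal axis) with its standard error for the 57 members tested in β-cells, for cytokines against untreated and for cytokines with NMMA against cytokines; colours mark the groups of members and filled points an adjusted p under 0.05. Inducible, constitutive and mitochondrial members with calls lie right of 0 in the first comparison and left of 0 in the second, and the called ER-located members lie on the opposite sides.

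The transcripts were spread over β-cells in different ways. To compare cells at 1 depth, each β-cell was thinned to 10500 UMIs, which left out 471 cells with fewer. *Hspa8* then had a UMI in 98.4 to 100% of the cells of every library. *Hspa1a* had one in 7.46% of the untreated β-cells of replicate 1 (112 of 1502, exact 95% interval 6.18 to 8.90) and in 20.3% of replicate 2 (103 of 508, 16.9 to 24.0). With cytokines the shares were 45.9% (505 of 1101, 42.9 to 48.9) and 51.1% (245 of 479, 46.6 to 55.7), with cytokines plus NMMA 22.7% and 27.4%, and with NMMA 16.5% and 26.8%. These intervals cover counting error only. Without thinning the shares were 10.7% and 26.7% untreated and 57.0% and 59.8% with cytokines. Macrophages, thinned to 1500 UMIs, had a UMI of *Hspa1a* in 0 of 31 and 0 of 59 untreated cells, which at that lower depth allows up to 9.68% and 5.08% of cells with a UMI. *Hspb1* was found in 1.86% and 12.4% of untreated β-cells and in 11.3% and 31.1% with cytokines, *Dnajb1* in 14.3% and 20.9% and then 51.6% and 46.3%, and *Hsph1* in 35.7% and 47.4% and then 71.4% and 76.0%.

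Inducible Hsp70 was concentrated in few cells even where many cells had a UMI of it. The 5% of β-cells with most *Hspa1a* held 96.3% and 77.8% of its UMIs in untreated islets, and 65.0% and 64.7% with cytokines. For *Hspb1* the shares were 87.7% in untreated replicate 2 and 85.7% and 72.9% with cytokines, while in untreated replicate 1, where fewer than 5% of cells had a UMI of it, the share is 100% by construction. For *Dnajb1* they were 51.9% and 71.2% and then 47.3% and 43.6%. *Hspa8* had 13.5% and 19.4% untreated and 11.8% and 15.4% with cytokines. *Hspa9* had 18.6% and 18.6%, and 14.0% and 13.6%. With cytokines *Hspa1a* had means of 3.87 and 8.11 UMIs per thinned cell, and *Hspa9* means of 3.55 and 3.35, close to *Hspa1a* in replicate 1 only. The median cell had 0 and 1 UMI of *Hspa1a* and 3 and 3 of *Hspa9*, and the cell with most *Hspa1a* had 237 and 550. The 5% of cytokine-exposed β-cells with most *Hspa1a* and *Hspa1b* together held 34.2% and 43.7% of the UMIs of *Hspb1*, 30.1% and 24.4% of those of *Dnajb1*, 18.5% and 28.2% of those of *Dnaja1*, and 15.8% and 16.7% of those of *Hsph1*. They held 6.22% and 8.35% of those of *Hspa8* and 4.20% and 3.37% of those of *Hspa9*, where an even spread would give 5%.

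**Figure D4:**
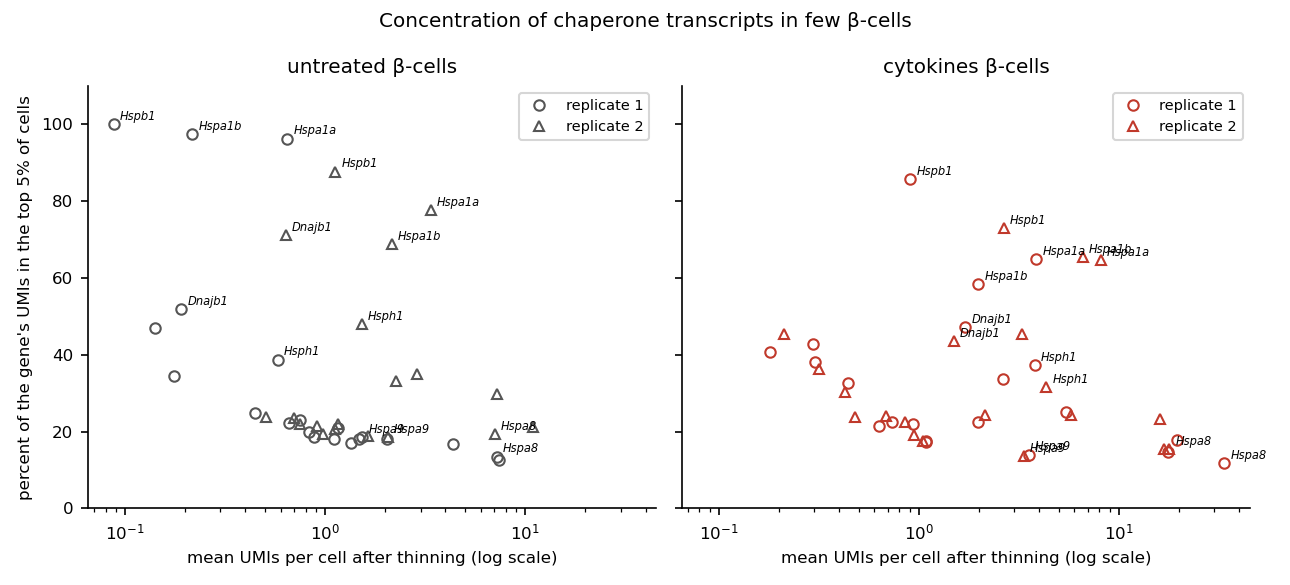
Percent of a gene's β-cell UMIs found in the 5% of cells with most of it (vertical axis) against its mean UMIs per cell after thinning (horizontal axis, log scale), for untreated and cytokine libraries of replicates 1 and 2. Hspa1a, Hspa1b and Hspb1 lie high at means at which other members lie low, and Hspa8 and Hspa9 lie below 20%.

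In α-cells, 51 members were tested, and 13 rose and 1 fell with cytokines, against 14.0% and 8.47% of all genes. The median member difference was 0.26 (all genes 0), and by total UMIs, which moved the median of all genes by -0.48, 9 rose and 7 fell. Of the inducible members 4 of 6 rose, with a group median of 2.84, and 3 of 8 constitutive and 3 of 8 mitochondrial members rose. *Hsph1* stood at 69.9 and 54.7 CPM untreated, 455 and 319 with cytokines, and 158 and 138 with cytokines plus NMMA. It rose by 2.63 ± 0.24 (adjusted p = 4.71e-07) and was lower with NMMA by a log2 difference of -1.39 ± 0.23 (adjusted p = 0.000894). *Dnajb1* rose from 24.3 and 18.2 to 195 and 154 CPM (3.04 ± 0.38, adjusted p = 0.000193, but 0.154 with the members kept in the clustering), and *Hspe1* from 258 and 250.4 to 872 and 698 CPM (1.63 ± 0.21, adjusted p = 2.13e-05). *Hspa8* rose from 978 and 771 to 3124 and 1644 CPM (1.45 ± 0.25, adjusted p = 0.00086), *Hsp90aa1* from 654 and 582 to 2719 and 1539 (1.78 ± 0.26, adjusted p = 0.000152), and *Hsp90ab1* by 0.997 ± 0.18 (adjusted p = 0.000535). *Hspa1b*, which did not pass in β-cells, rose here from 28.7 and 64.9 to 1108 and 547.5 CPM (4.12 ± 0.68, adjusted p = 0.0141), whereas *Hspa1a*, at 102 and 99.7 CPM untreated and 1927 and 612 with cytokines, did not pass (3.65 ± 1.34, adjusted p = 0.142). The member that fell was *Dnajb3*, from 13.3 and 8.04 to 0 and 3.07 CPM.

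With NMMA added to the cytokines, 9 members were lower in α-cells and 1 was higher, where 6.20% and 4.67% of all genes were, and by total UMIs (median shift 0.37) 5 were lower and 8 higher. The member higher with NMMA in the main scaling was *Dnajc10*, at 20.3 and 31.7 CPM with cytokines and 49.4 and 48.0 with NMMA added (0.86 ± 0.27, adjusted p = 0.047). *Hspe1* (-1.33), *Hsph1* (-1.39), *Dnaja4* (-1.36), *Hsp90aa1* (-1.21) and *Hspa9* (-0.87) had the smallest adjusted p-values among the lower members, 0.000576 to 0.00763. The *Hspa9* call was lost by total UMIs (adjusted p = 0.0914). Without the cytokine library of replicate 1, and without the replicate 2 library of cytokines with NMMA, 3 members were called, and without the replicate 1 library of the latter 6. Other signals moved with these values. Insulin transcripts made up 0.643% and 1.14% of the UMIs of untreated α-cells, 4.75% and 2.89% with cytokines and 1.57% and 4.83% with NMMA added. *Sst*, the hormone gene of δ-cells, stood at 155 and 37.0 CPM untreated, 1739 and 3223 with cytokines and 535.5 and 1337 with NMMA added (4.70 for cytokines, adjusted p = 0.053). The summed immediate early genes went from 619 and 700.2 to 1373 and 1156 CPM with cytokines, with 4 of 8 higher (among them *Junb*, 2.26) and 2 lower (*Fos* -1.14 and *Ier2* -1.33). Of the α-cells with cytokines, 49 of 49 and 45 of 59 lay in a cluster led by *Hspb1*, *Hspa1a* and *Gadd45b*. The part of these in the chaperone differences was not tested. In β-cells the same early genes divided, with 2 of 8 higher (*Atf3* and *Jun*) and 4 lower with cytokines, and 6 of 8 were higher and none lower with NMMA added.

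Few calls were made in the other cell types, which had 10 to 87 cells per library. Only 1 δ-cell library with cytokines held at least 10 cells, and it held exactly 10, so this group had no replicate and its library is assumed to vary like the others. The single member called was *Hspa1b*, at 86.3 and 44.3 CPM untreated and 351.5 with cytokines (2.39 ± 0.35, adjusted p = 0.000521), where 3.84% of all genes were called. That level rests on 61 UMIs, and the direction turned with the members kept in the clustering (log2 difference -3.68). The δ-cell library with cytokines also held *Ins1* at 26290 CPM, against 1549 and 8536 untreated, and *Ins2* at 22920, against 6191 and 21580. The part of RNA from other cells in the *Hspa1b* level was not tested. Between cytokines with and without NMMA no δ-cell member was called by edgeR, 5 had an unadjusted p under 0.05, and 0.0960% of all genes were called. With the block *Hspa1a*, *Hspa1b* and *Hspb1* were called there (-1.55, -2.15 and -2.14), and *Hspa1a*, *Hspb1* and *Dnajc8* in addition with cytokines, in a fit where the cytokine group has 1 library. With cytokines and NMMA *Dnajb11* was higher than in untreated δ-cells, at 155 and 156 against 63.9 and 53.5 CPM (1.39, adjusted p = 0.000138). In that comparison 867 of the 9377 genes tested were called, 583 of them higher, and the number of members among them is not given.

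Macrophages, endothelial cells and mesenchymal cells gave no member call by edgeR or DESeq2 with cytokines, where 4.62%, 6.33% and 1.64% of all genes were called. At an unadjusted p under 0.05 there were 1 of 34, 2 of 46 and 3 of 43 members. On simulated counts the cytokine test called 4.86%, 3.19% and 0% of the genes changed 2-fold in these types, against 31% in β-cells. A missing call here therefore does not show that a member stayed unchanged. With NMMA added there was again no call (3, 3 and 1 members at an unadjusted p under 0.05), where 0.116%, 0% and 0% of all genes were called. The block, by which the pools of mice pair the libraries, changed this for 3 members. Macrophage *Hspe1* (-1.32, adjusted p = 0.011, against 0.0884 without the block) and *Hspb1* (adjusted p = 0.0148, against 0.917) were called lower with NMMA added. The log2 difference of *Hspb1* was extreme, -7.245 with the block and -7.636 without it. Mesenchymal *Dnajb6* was called higher with cytokines (1.31, adjusted p = 0.0294, against 0.0896). Endothelial *Hspa8* stood at 1655 and 1662 CPM untreated and 2024 and 1680 with cytokines (0.16 ± 0.20), and *Hsp90ab1* at 2106 and 2176 and then 2079 and 2260 (0.02 ± 0.20). Endothelial *Hspb1*, at 275.5 and 249 CPM untreated and 164 and 218 with cytokines, had a difference of -0.44 ± 0.24 (adjusted p = 0.392). Macrophage *Hspa8* stood at 1214 and 816 CPM untreated and 1504 and 1414 with cytokines (0.53 ± 0.23, adjusted p = 0.276). Macrophage *Hspa1a*, too low to be tested, stood at 2.77 and 0 CPM untreated and at 532 and 20.3 CPM with cytokines, and the level of replicate 1 came from 9.09% of its 33 cells. Mesenchymal *Hspa8* stood at 1116 and 1123 CPM untreated and 1878 and 1317 with cytokines (0.51 ± 0.34, adjusted p = 0.801).

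The cytokine difference itself was then compared between β-cells and 3 other types, with the library as a block. On simulated counts such fits made few calls. Unchanged genes gave 7 calls against macrophages, 8 against endothelial cells and 4 (44.4%) against α-cells, beside 2, 3 and 5 calls of changed genes. In that setting, with few genes changed, the adjusted p-values understated the error. The fits of the real data called many more genes, and how far their adjusted p-values understate the error was not measured. Against endothelial cells 12 members differed, 11 with a larger log2 difference in β-cells, where 6.33% of all genes differed. Of the 839 genes called in that fit, 490 had a larger difference in β-cells. *Hsph1* differed by 2.67 ± 0.30 (adjusted p = 4.1e-16), *Hspa1b* by 2.11 ± 0.39 (adjusted p = 7.11e-06), *Hspe1* by 1.74 ± 0.30 (adjusted p = 1.5e-06), *Hspa8* by 1.72 ± 0.23 (adjusted p = 1.38e-11) and *Hsp90aa1* by 1.31 ± 0.24 (adjusted p = 7.27e-06). *Dnajc10* was the exception (-1.64 ± 0.33). DESeq2 called 9 members, and without the cytokine library of replicate 1 the count was 7 and without the untreated library of replicate 1 it was 6. Against macrophages 767 genes differed (6.00% of all), 664 of them with a larger difference in β-cells, and the median of all genes was 0.36. Among the 767 were 9 members, all with a larger difference in β-cells. They were led by *Hsp90aa1* (1.67 ± 0.26, adjusted p = 3.73e-08), *Hspa8* (1.50 ± 0.25, adjusted p = 1.95e-07) and *Dnajb1* (2.15 ± 0.49, adjusted p = 0.000646), but DESeq2 called 2 members, 5 were called with the members kept in the clustering, and the fit without the untreated library of replicate 1 called 2. Against α-cells 3 members differed, a share near the 4.53% of all genes. *Hspa2* (1.24 ± 0.32) and *Hspa8* (0.64 ± 0.18) had a larger difference in β-cells, and *Dnajc24* (-1.50 ± 0.32) one further below 0. Of 11 alternatives, the *Hspa8* call was lost in 6, that of *Hspa2* in 4 and that of *Dnajc24* in 1. *Dnajc24* stood at 22.8 and 25.7 CPM in untreated α-cells and 32.8 and 26.6 with cytokines. The other inducible and constitutive members gave no call between β- and α-cells, which does not show that they respond alike. Without the cytokine library of replicate 1 or either untreated library 1 of the 3 was called.

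**Figure D5:**
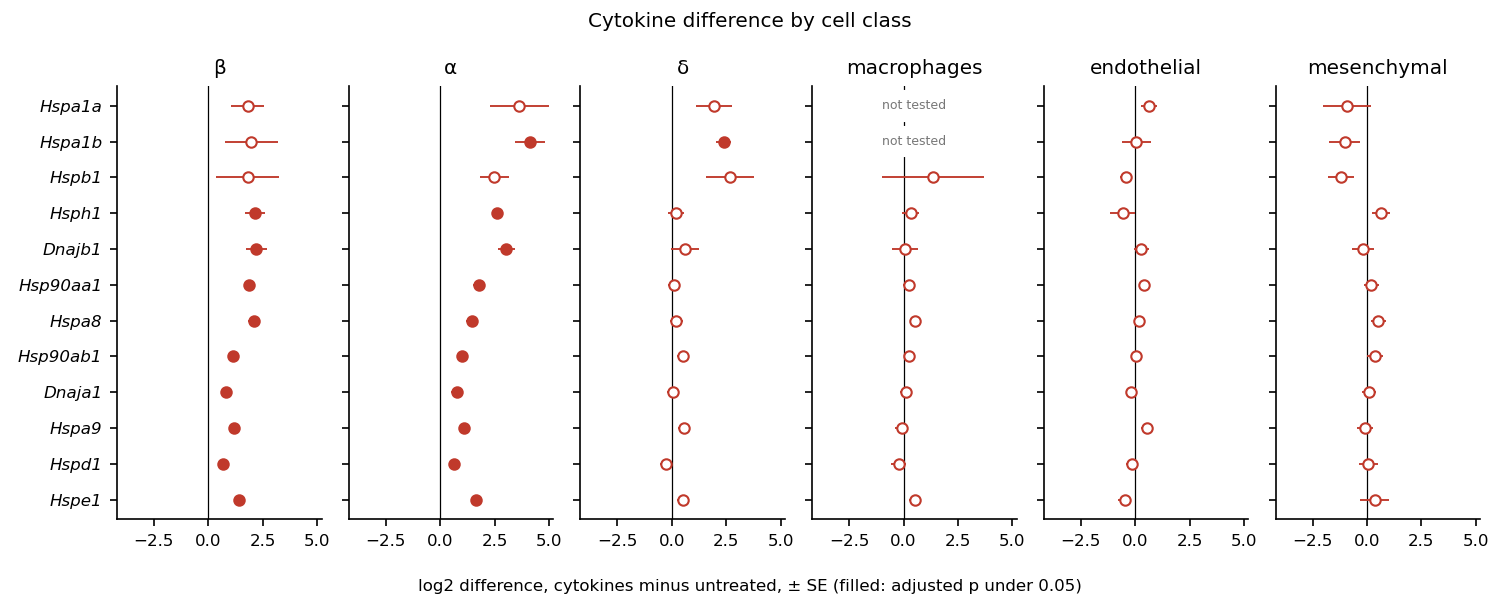
Log2 difference of cytokines against untreated (horizontal axes) with its standard error for 12 members in 6 cell types; filled points had an adjusted p under 0.05 within that type. Points of β- and α-cells lie right of 0 for the inducible, constitutive and mitochondrial members shown, no point of macrophages, endothelial or mesenchymal cells is filled, and Hspa1a and Hspa1b were not tested in macrophages.

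In untreated islets 57 members were tested between β-cells and α-cells or macrophages and 59 between β-cells and endothelial cells. The share of members called was near that of all genes or below it, and the direction of many members depended on the scaling. Insulin transcripts made up 42.4% and 40.2% of the UMIs of untreated β-cells. Scaling by total UMIs moved the median of all genes by 0.55, 0.31 and 1.03 for α-cells, macrophages and endothelial cells against β-cells. Members called in the same direction under both scalings are given here by their main log2 difference from β-cells. In α-cells 7 members were higher and 6 lower under both, of 7 and 12 in the main scaling (24 and 6 by total UMIs), where 30.3% of all genes were called. *Dnajc24* (-2.60), *Hspa12a* (-3.17), *Hspa13* (-1.27), *Dnajb11* (-1.27) and *Dnajc10* (-1.19) were lower in α-cells, 3 of them ER-located. In macrophages 6 were higher and 12 lower under both, of 6 and 14 in the main scaling (11 and 12 by total UMIs), where 45.6% of all genes were called. *Dnaja4* (-4.34), *Dnajc24* (-2.09), *Hsph1* (-1.87), *Hspa12a* (-4.79) and *Dnajc10* (-1.72) were lower in macrophages. In endothelial cells 9 were higher and 10 lower under both, of 9 and 23 in the main scaling (29 and 10 by total UMIs), where 54.7% of all genes were called. *Dnajc24* (-3.34), *Hspa1a* (-2.25) and *Hspe1* (-1.54) were lower and *Hspb8* (3.56) higher in endothelial cells, and *Hspb2*, another small Hsp, stood at 15.4 and 18.3 CPM there and had no UMI in the 2 untreated β-cell sums. *Dnajc24* and *Hspa12a* were lower than in β-cells in each of these 3 types.

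The proteins that work with the chaperones were followed through 36 further genes, namely heat shock factors, Bag and Hsp90 co-chaperones, subunits of the cytosolic chaperonin and mitochondrial exchange factors. In β-cells 20 of the 36 rose with cytokines and 2 fell (*Bag4* -0.71 and *Hspbp1* -0.60), with a median difference of 0.65, where 23.5% and 22.3% of all genes rose and fell. With NMMA added 10 were lower and 1, *Bag2* (0.85), was higher, where 8.98% and 10.3% of all genes were. By total UMIs, an alternative chosen after seeing the data, 15 rose and 3 fell with cytokines, and 5 were lower and 2 higher with NMMA added. *Grpel2*, the nucleotide exchange factor of mitochondrial Hsp70, stood at 13.5 and 14.8 CPM untreated, 76.9 and 62.8 with cytokines, and 22.8 and 19.99 with cytokines plus NMMA (2.31 ± 0.15 with cytokines and -1.70 ± 0.15 for the addition of NMMA, adjusted p = 0.00125 for the latter). The chaperonin subunits *Cct4* (1.25 and -1.02) and *Cct2* (0.86 and -0.77), the Hsp70 to Hsp90 adaptor *Stip1* (1.08 and -0.86) and the heat shock factor inhibitor *Hsbp1* (0.91 and -0.56) were the other genes with the smallest adjusted p-values for cytokines. *Hsf1*, the factor itself, stood at 15.5 and 13.1 CPM untreated and 21.8 and 14.9 with cytokines (0.36 ± 0.22, adjusted p = 0.205). In α-cells 8 of the list rose with cytokines and none fell, with a median of 0.37, where 14.0% and 8.47% of all genes did, and 7 were lower with NMMA added, where 6.20% of all genes were. By total UMIs 5 rose and 7 fell in α-cells with cytokines (median -0.11), and 3 were lower and 2 higher with NMMA added, so the direction of this list in α-cells depended on the scaling. In endothelial cells 1 of 34 tested was lower with cytokines, where 6.33% of all genes were called, and none was called in δ-cells, macrophages or mesenchymal cells.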

How the data were processed

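The authors aligned reads with CellRanger (versions 3.0.0 and 6.0.0 per the file headers, build mm10 per the labels) and deposited raw UMI counts per gene and barcode for 8 libraries, with 31053 and 32285 genes listed for replicates 1 and 2. The filters of the study were applied: 200 genes or more per barcode, no more than 5500 (first replicate) or 6500 (second), and mitochondrial UMIs below 10%. scanpy 1.11.5 and leidenalg 0.10.2 clustered them (2000 variable genes without the members, 30 components, 20 neighbours, resolution 1), and clusters were named from fixed markers; clusters of low UMI content stayed unnamed and out. Of the kept cells, 200 (1.84%, 130 among β-cells) were called doublets and stayed in the main sums.

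Counts were summed per cell type and library with at least 10 cells and tested with edgeR 4.0.16 (filterByExpr, TMM, quasi-likelihood F test, all 4 conditions in 1 fit, R 4.3.3), with p-values adjusted over all genes tested and a threshold of 0.05. SE is the log2 difference divided by the square root of F. Differences between cell types took the library as a block. The alternatives were DESeq2 1.42.0, the replicate number as a block, scaling by total UMIs, no filter, doublets removed, members kept in the clustering, at least 5 cells, and each library left out. Shares of all genes called are those of the main fits, so counts of members under an alternative stand without that background. Replicate numbers mark a pool of mice divided over the conditions and so pair the libraries: deviations of same-numbered β-cell sums from their group means correlated at 0.615 to 0.707 over the pairs of conditions (α-cells, median 0.347). Scripts were tested on simulated counts. There the fits between cell types, which use 1 dispersion for both types, recovered few of the changes, and unchanged genes made up most of their few calls against macrophages and endothelial cells and a sizeable part of those against α-cells.

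Named with values are the inducible and constitutive members, *Hspa9*, *Hspd1* and *Hspe1*, the 5 called members with the largest increase and decrease per β-cell comparison, and up to 5 called members with the smallest adjusted p elsewhere. Other names were chosen after their values were seen. The members and lists were chosen with earlier results of these data known. Gene positions come from GENCODE M21 (GRCm38). Shares of cells carry exact Clopper-Pearson intervals.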

Additional observations from a re-analysis of the deposited data

Results flagged for a closer look

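A test of the difference between cell types singled out 24 cytokine responses (log2 difference in β-cells minus that in the other type). Against α-cells these were *Dnajc24* (-1.50), *Hspa2* (1.24) and *Hspa8* (0.64). Against endothelial cells they were *Hsph1* (2.67), *Hspa1b* (2.11), *Dnajb1* (1.80), *Hspe1* (1.74), *Hspa8* (1.72), *Dnajc15* (1.56), *Hsp90aa1* (1.31), *Hspa1a* (1.29), *Dnajc8* (0.9997), *Hsp90ab1* (0.99), *Dnaja1* (0.88) and *Dnajc10* (-1.64). Against macrophages they were *Dnajb1* (2.15), *Hsph1* (1.80), *Hsp90aa1* (1.67), *Hspa8* (1.50), *Dnaja3* (1.47), *Hspa9* (1.30), *Dnajc2* (1.14), *Hsp90ab1* (0.95) and *Hspe1* (0.93). On simulated counts, unchanged genes made up most of the few calls against macrophages and endothelial cells and 44.4% of those against α-cells. Single entries are therefore uncertain. Of the 767 genes called against macrophages, 664 had a larger difference in β-cells. Endothelial cells had 14 to 52 cells per library and macrophages 28 to 72, against 439 to 1577 β-cells.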

How the results depend on the processing

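Of the values for named members under the alternatives, 985 kept their direction and side of the threshold, 76 lost a call, 19 gained one and 2 turned. The turned values were *Hspa14* in β-cells between cytokines with and without NMMA by total UMIs (0.14) and *Hspa1b* in δ-cells with the members kept in the clustering (-3.68). Cells per library and, for *Hspa1a*, *Hspa1b* and *Hspb1*, the spread between the pools limit the tests; without the filter on low counts these 3 were called with cytokines in β-cells, and the cause was not tested.

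Counts of called members moved by more than 1.5 times as follows. By total UMIs, cytokines with and without NMMA in β-cells gave 15, β-cells against α-cells 7, untreated α-cells 30, and the co-chaperone list 7 in β-cells with NMMA added and 2 in endothelial cells with cytokines. Without the filter, cytokines with NMMA against untreated β-cells gave 14 and NMMA alone 2. With the replicate block these gave 13 and 4, δ-cells 4 with cytokines and 3 with NMMA added, macrophages 2 with NMMA added (*Hspb1* and *Hspe1*), and mesenchymal cells 1 with cytokines (*Dnajb6*). The block left β-cells at 37 and 30 and α-cells at 18 and 15 calls in the first 2 comparisons, within 1.5 times of 33, 24, 14 and 10. With DESeq2 untreated α-cells gave 12 and β-cells against macrophages 2. With the members kept in the clustering δ-cells gave 2 and 2, β-cells against α-cells 1, and β-cells against macrophages 5. Without thinning, an alternative chosen after seeing the data, the mean share of cytokine β-cells with *Hspa1a* was 58.4% in place of 48.5%.

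With each library left out in turn, calls ranged from 22 to 32 (cytokines), 6 to 23 (NMMA added), 2 to 12 (cytokines with NMMA against untreated) and 0 to 0 (NMMA alone) in β-cells. They ranged from 10 to 15 and 3 to 11 in α-cells, 1 to 2 and 0 to 1 in δ-cells, and 0 to 2 and 0 to 2 in macrophages, and were 0 in endothelial and mesenchymal cells. Differences in response ranged from 1 to 4 (α-cells), 2 to 9 (macrophages) and 6 to 12 (endothelial cells), and differences in untreated level from 11 to 20, 11 to 21 and 25 to 34. Untreated α-cells gave 11 and 12 without either untreated library and untreated macrophages 11 without that of replicate 2.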
